A study of Mus musculus with 36 samples.

Results

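Naive CD4 T cells of wild-type littermate mice (WT) and of mice whose T cells lack TRIM28 (KO, labelled TRIM28KO) were stimulated for 72 h in the condition named Th1, and the 3 KO samples were compared with the 3 WT samples. These are 6 of the 36 expression arrays of a study that profiled both genotypes as naive cells and in 5 stimulated conditions (Th0, which names no lineage, Th1, Th2, Th17 and Treg), with 3 samples in each of 12 groups. In every stimulated group the cells had been enriched magnetically, sorted as naive cells and cultured with plate-bound anti-CD3 and soluble anti-CD28. The labels give neither the cytokines of each condition, nor the Cre driver of the deletion, nor the age of the mice, nor whether a group's samples are from different mice. The p-values therefore cover the spread between samples of a group, pooled over all 12 groups, which may be technical. A gene's own spread in the 6 Th1 samples can be larger or smaller than that pooled spread. The samples were picked by their labels, with earlier results of these data known.

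TRIM28 (KAP1) does not bind DNA itself. KRAB zinc-finger proteins tether it to their target sequences, and it silences them through SETDB1, an enzyme that methylates histone H3, and heterochromatin protein. In CD4 T cells, interferon-gamma and interleukin-12 signals raise the T-box factor Tbx21 (T-bet) and the interleukin-12 receptor, and the resulting Th1 cells make interferon-gamma, carry the chemokine receptor Cxcr3 and in part express the related T-box factor Eomes and cytotoxic genes. T cell activation also switches on glycolysis, lipid and amino acid supply and the cell cycle, and switches off genes of resting cells.

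Expression is given as log2 intensity, in which a difference of 1 is a 2-fold change. A change is KO minus WT with its standard error (SE) from a limma model fitted to all 36 samples, and a gene was called at an adjusted p under 0.05 over the 13082 genes with values above the table median of 5.26 in at least 3 samples. In Th1, 5328 genes were called (40.7% of those tested), 2227 higher in KO (17.0%) and 3101 lower (23.7%), and the median change over all genes tested was -0.03. Of the called genes 204 were at least 2-fold higher and 635 at least 2-fold lower. The KO samples were all higher than the WT samples in 22.9% of the genes tested and all lower in 29.8%. When each sample was centered on its median the split was 1610 higher and 3825 lower, and the median of all genes was -0.11. The counts of each gene list below are to be read against these shares. The lists were written with earlier results of these data known, so they describe and do not test.

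The 3 KO samples were not alike. Across genes the WT Th1 samples correlated with each other at 0.991 to 0.993, KO Th1 2 with KO Th1 3 at 0.989, and KO Th1 1 with these at 0.977 and 0.974. KO Th1 1 was also the farthest from WT, at 0.914 to 0.928 against 0.959 to 0.970 for the other KO samples. It was the lowest KO sample in 75.6% of the genes called lower (35.5% of all genes tested) and the highest in 76.3% of those called higher (37.6% of all). Without KO Th1 1, 2290 genes were lower (17.5%) and 1532 higher (11.7%), and 72.8% of the genes lowered with it and 67.6% of those raised were still called. Fitted alone, the 6 Th1 samples gave 2755 lower (21.1%) and 1954 higher genes (14.9%). For that reason values are given for each sample, and counts that KO Th1 1 moves are given without it as well.

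**Figure D1:**
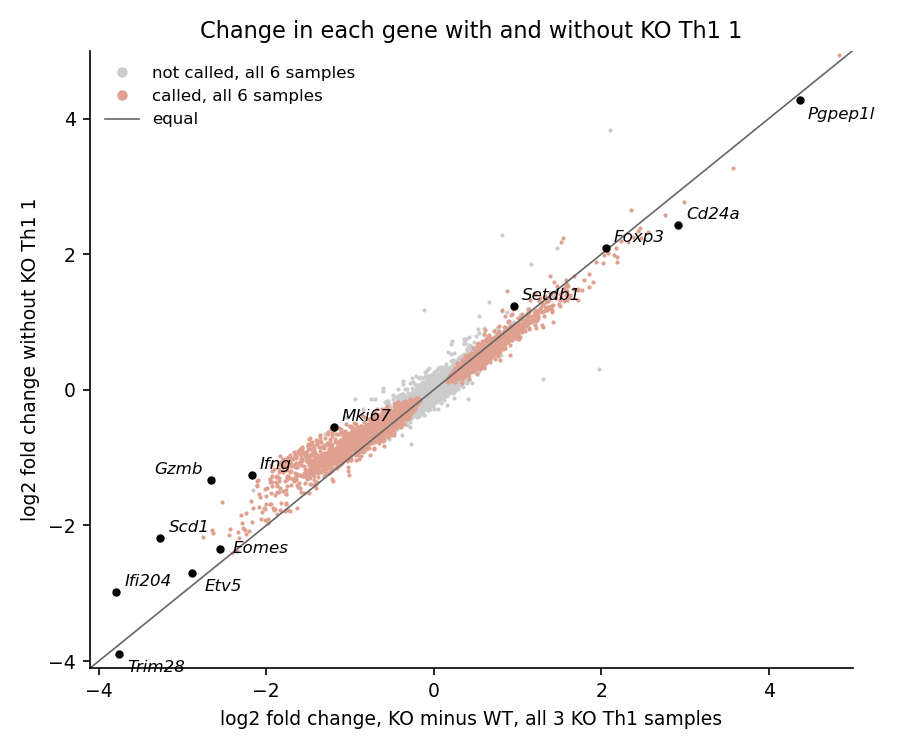
Each point is a gene, with its log2 change (KO minus WT) over all Th1 samples on the x axis and without KO Th1 1 on the y axis; orange points were called with all samples, grey points were not, and the line marks equal values. Gzmb, Scd1, Ifng and Mki67 lie above the line because their fall was smaller without KO Th1 1, while Trim28, Eomes, Etv5, Foxp3 and Pgpep1l lie close to it.

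The label of the genotype was borne out by the targeted gene. Trim28 stood at 9.74, 9.76 and 9.64 in the WT samples and at 6.23, 6.14 and 5.51 in the KO samples. The groups were far apart, and KO Th1 1 was not the lowest here. The fall was 13.5-fold (-3.76, SE 0.16, adjusted p = 8.2e-16). The label of the condition was borne out in WT cells, where the Th1 culture stood above the Th0 culture in Tbx21 (4.11), Ifng (4.64), Cxcr3 (2.999) and Il12rb2 (2.71), all called, among 1417 genes called in that comparison (10.8%). The 11 tested genes of T cell identity, such as Cd3e and Cd4, had a mean level of 11.2 in WT and 11.3 to 11.4 in KO samples.

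Most markers of other cells lay near or below the filter level. Those above it in the mean of the Th1 samples were Ighm, H2-Ab1, Cd68, Tyrobp, Cd8b1, Cd7, Sox13 and Itga2b. The mean level per sample of 12 B cell genes was 5.11 to 5.20 in WT and 4.96 to 5.26 in KO, that of 16 myeloid genes 4.56 to 4.69 and 4.60 to 4.68, and that of 5 erythroid and platelet genes 4.54 to 4.63 and 4.58 to 4.68. For 8 NK and gamma-delta T cell genes it was 4.49 to 4.70 in WT and 4.82 to 4.97 in KO. Of these 8, Cd7 and Sox13 had a group mean above the filter level of 5.26, and Cd7 was the 1 member called. Of the CD8 genes, Cd8a lay between 4.72 and 5.13 in all samples and Cd8b1 between 7.34 and 8.17, neither called. Among tested members of the B cell list, Ighm was high and rose (11.03 to 11.66 in WT, 12.004 to 12.28 in KO) and H2-Ab1 and Pax5 fell (Pax5 not without KO Th1 1), while Pax5, Cd79b and Ebf1 lay between 4.55 and 5.91. Of 6 tested myeloid genes 1 rose (Zbtb46, not called under 3 other scalings), and of 2 erythroid and platelet genes none was called (1 at an unadjusted p under 0.05 in limma). In bulk RNA, fewer cells of a type and less RNA per cell cannot be told apart, and that holds for every change below.

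Of 17 tested Th1 transcription factors and cytokines 2 rose (11.8%) and 7 fell (41.2%), where 17.0% and 23.7% of all genes did. The median was -0.39. Without KO Th1 1 it was 2 and 4 (median -0.17), where 17.5% of all genes fell. In the Th1 samples alone 2 rose and 3 fell, where 21.1% of all genes fell. Tbx21, the factor that defines the lineage, stood at 10.42, 10.78 and 11.18 in WT and 9.82, 10.38 and 10.62 in KO. The groups overlapped, and the change of -0.52 (SE 0.24) was not called (adjusted p = 0.084). It was called under 5 of 17 other settings, median centering among them. Il12rb2, the signalling chain of the interleukin-12 receptor, stood at 11.37, 11.52 and 11.71 in WT and 11.29, 11.46 and 11.69 in KO, with a change of -0.05 (SE 0.31). Il18r1, the interleukin-18 receptor, had 11.47, 11.41 and 11.52 against 11.40, 11.48 and 11.53 (0.01), and Runx3, a partner of T-bet, had 9.74, 9.60 and 9.79 against 9.57, 9.79 and 9.78 (0.01). The genotypes overlapped in each of these 3 genes.

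Members of the same pathway that did differ went both ways. Cxcr3 had 8.88, 8.50 and 8.68 in WT and 9.74, 9.68 and 9.17 in KO. All KO samples were above all WT samples, and it rose by 0.85 (SE 0.17, adjusted p = 0.00034). Stat4, which carries the interleukin-12 signal, had 11.63, 11.31 and 11.71 against 12.24, 12.09 and 11.97 and rose by 0.55 (adjusted p = 0.0063, not called without WT Th1 2). Irf1, an interferon-gamma target and Th1 factor, rose by 0.63 (not called without WT Th1 2 or KO Th1 1). Il12rb1, the other chain of the receptor, fell, from 9.32, 9.55 and 9.27 to 7.60, 8.63 and 8.82 (-1.03, SE 0.24, adjusted p = 0.00092, and -0.66 without KO Th1 1).

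Ifngr2, the signalling chain of the interferon-gamma receptor that Th1 cells turn down, was at 7.05, 7.58 and 7.04 in WT Th1 and at 8.61, 8.19 and 8.94 in KO Th1. No KO sample reached down to the WT range, and the rise was 1.36 (SE 0.16, adjusted p = 5.3e-07). In Th0 its mean was 9.57 in WT and 9.86 in KO, and WT Th1 differed from WT Th0 by -2.34. The list of Th1 receptors and chemokines also held Hopx, a homeodomain protein gene. Of its 16 tested members 2 rose and 3 fell (median -0.02), and the third to fall beside Il12rb1 and Hopx was Il27ra (-0.45).

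Of the genes that stood higher in WT Th1 than in WT Th0, some were lower in KO Th1 than in WT Th1, and 6 of these, grouped after their values were seen, are described here. Eomes was at 8.13, 7.79 and 7.79 in WT Th1 and at 4.93, 5.67 and 5.45 in KO Th1. Its Th0 means were 5.23 in WT and 5.14 in KO, so KO Th1 samples lay about where both genotypes lay in Th0. Etv5, an Ets factor, was at 7.92, 8.14 and 8.40 against 4.89, 5.44 and 5.48, with a Th0 mean of 5.60 in WT. The groups were apart in both genes, with changes of -2.55 (SE 0.26, adjusted p = 3.4e-08) for Eomes and -2.89 (SE 0.20, adjusted p = 5.3e-11) for Etv5, which was -1.76 when the probe sets of a gene were averaged. The WT comparison of Th1 with Th0 and the comparison of KO with WT share the WT Th1 samples, so their values are set side by side only.

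Klrk1, the activating receptor NKG2D, was at 5.56, 6.61 and 6.72 in WT and 3.54, 3.85 and 4.66 in KO. Slamf7, a receptor of cytotoxic and activated lymphocytes, was at 10.004, 9.66 and 10.08 against 7.12, 8.16 and 8.22. All KO samples were lower in both, with changes of -2.28 (SE 0.23) and -2.08 (SE 0.23), and the Th0 means were 3.42 and 3.33 for Klrk1 and 6.40 and 6.11 for Slamf7 in WT and KO. KO Th1 differed from KO Th0 by 1.72 in Slamf7 (adjusted p = 8.4e-06), and by 0.69 in Klrk1 (adjusted p = 0.063). The KO Th1 values of Klrk1 lay below the filter level of 5.26, so its fall may be understated. Ifi204, an interferon-inducible member of the p200 family, was at 9.45, 8.49 and 8.95 against 3.56, 6.001 and 5.96. Its fall was -3.79 on the log2 scale (SE 0.45), close to that of Trim28, and -2.98 without KO Th1 1, where that of Trim28 was -3.89. Serpinb5, a serpin gene, was at 7.98, 6.91 and 8.02 against 4.43, 6.37 and 5.20, a change of -2.30 (SE 0.28, adjusted p = 5.9e-07). Neither gene's groups overlapped, and KO Th1 1 was the lowest in both. The Th0 means in WT and KO were 3.90 and 3.23 for Ifi204 and 3.50 and 3.54 for Serpinb5, so KO Th1 samples lay between Th0 and WT Th1 levels on average.

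**Figure D2:**
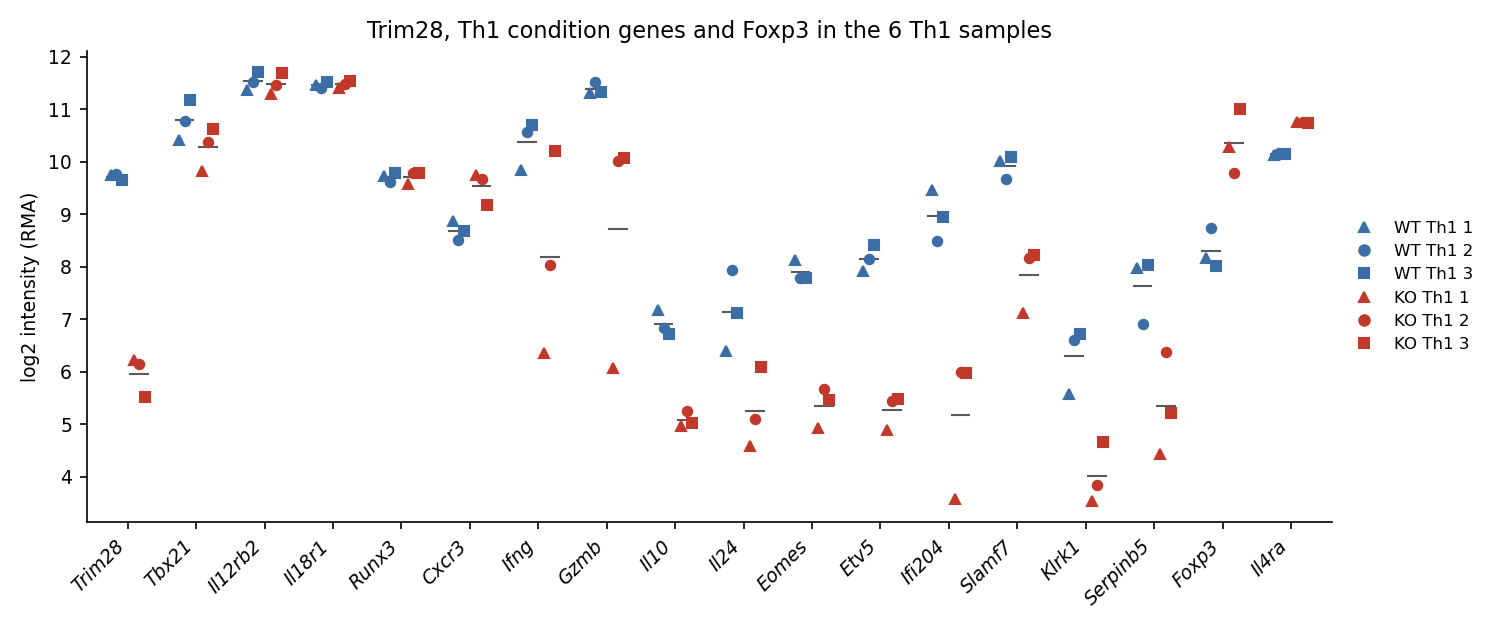
log2 intensity (y axis) of Trim28, Th1 condition genes, Foxp3 and Il4ra in each of the 6 Th1 samples; triangles, circles and squares are replicates 1, 2 and 3, blue is WT, red is KO, and grey bars are group means. Il12rb2, Il18r1 and Runx3 overlap between genotypes, Eomes, Etv5, Slamf7 and Klrk1 are lower in all 3 KO samples, and Ifng and Gzmb are spread widely among the KO samples.

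Cytokine genes fell in part, and some were uneven. Il10, a regulatory cytokine gene that Th1 cells also express, was at 7.17, 6.82 and 6.72 in WT and 4.95, 5.25 and 5.02 in KO. The KO samples lay close together and well below WT (-1.83, SE 0.44, adjusted p = 0.0015). All 3 were below the filter level of 5.26, so the fall may understate the true ratio and their closeness says little. Il24, a cytokine gene of the interleukin-10 family, was at 6.38, 7.93 and 7.11 against 4.59, 5.09 and 6.08 (-1.89, SE 0.34). The groups did not overlap, although KO Th1 3 came close to WT Th1 1.

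Ifng had 9.84, 10.57 and 10.69 in WT and 6.35, 8.02 and 10.20 in KO. KO Th1 3 lay within the WT range, and the change of -2.18 (SE 0.51, adjusted p = 0.0011) was -1.25 without KO Th1 1 (adjusted p = 0.024) and not called in the Th1 samples alone (0.085). Il2 and Il3 set the same sample apart. Il2 was at 7.84 in KO Th1 3 and 4.03 to 4.37 in the other 5 samples, and Il3 at 8.47 in KO Th1 3 and 4.63 to 5.89 elsewhere. Neither was called over the 3 samples.

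In the fit to all samples, genes of cytotoxic and NK-like function were lower or not called. Of 17 tested none rose and 6 fell (35.3%, against 23.7% of all genes), with a median of -0.36. Without KO Th1 1, 4 fell, where 17.5% of all genes did. In the Th1 samples alone 4 fell and 1 rose, where 21.1% of all genes fell. Gzmb, the main granzyme of cytotoxic cells, was at 11.30, 11.52 and 11.33 in WT and at 6.07, 10.02 and 10.08 in KO. All KO samples were lower, but KO Th1 1 decided the size: the change was -2.66 (SE 0.70, adjusted p = 0.0032) with it and -1.33 (adjusted p = 0.071) without it, and it was not called in the Th1 samples alone (0.072). Gzmc, another granzyme gene, was at 6.68, 6.77 and 6.79 against 4.34, 5.79 and 5.07 (-1.68, adjusted p = 0.00031). Nkg7, a granule protein gene, had 11.62, 11.63 and 11.68 against 10.84, 11.41 and 11.52 and was not called (-0.39, adjusted p = 0.45), and Prf1, the perforin gene, had -0.01. The NK marker list above held Cd7 as its 1 called member, and its part in these changes was not tested. Klrc1, Ifi204, Ly6a2, Ly6c2 and Vmn2r96 have near-identical relatives whose RNA the probes may not tell apart.

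Foxp3, the factor that defines regulatory T cells, rose in KO Th1 cells. It was at 8.17, 8.73 and 8.0045 in WT and 10.28, 9.79 and 11.00 in KO. Every KO sample exceeded every WT sample, by 2.05 on average (SE 0.35, adjusted p = 3.9e-05) and by 2.09 without KO Th1 1. The Th0 means were 10.90 in WT and 11.47 in KO, and WT Th1 differed from WT Th0 by -2.60 (adjusted p = 3.8e-06). The mean of KO Th1 lay between those of WT Th1 and WT Th0.

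Other Treg genes did not follow as a group. Of 20 tested 6 rose and 5 fell (5 and 0 without KO Th1 1, 5 and 6 with samples centered on their medians), and the median was -0.05. Nrp1, the co-receptor neuropilin-1, was at 7.98, 7.87 and 8.15 in WT and 9.33, 9.43 and 9.41 in KO, and Izumo1r (folate receptor 4) at 7.90, 7.74 and 7.73 against 9.34, 8.97 and 9.05. Both rose with no overlap (1.39 and 1.33), as did Tgfb3, Nt5e (CD73) and Itgae (CD103, not called without KO Th1 1). Ikzf2, the Helios gene, had -0.42 and Il2ra, which encodes CD25, -0.05, neither called. The 5 that fell, Capg, Tigit, Entpd1, Tnfrsf4 and Tgfb1, were not called without KO Th1 1.

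In the TGF-beta pathway list most called members rose. Of 20 tested genes 12 rose and 2 fell (8 and 0 without KO Th1 1, 8 and 2 with samples centered on their medians). The median was 0.35, and the medians against the WT mean were 0.41 in KO Th1 1, 0.14 in KO Th1 2 and 0.40 in KO Th1 3. The receptor gene Tgfbr2 was at 8.99, 8.66 and 8.83 in WT and 9.97, 9.66 and 9.56 in KO (0.90, adjusted p = 2.2e-05). Smad7, the inhibitory Smad that the pathway induces, was at 8.13, 7.96 and 8.20 against 9.56, 9.10 and 9.17 (1.18, adjusted p = 6.1e-09). In both the KO samples stood above all WT samples. The signal carriers Smad3 (0.50) and Smad4 (0.48) and the ligand gene Bmp7 rose too, and Pmepa1, an inhibitor that the pathway induces, fell by 0.75 (not called without KO Th1 1).

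Of 10 tested Th2 genes 3 rose and 1 fell, and no cytokine gene was among them. Gata3, the Th2 master factor, was at 8.18, 8.13 and 8.19 in WT and 8.78, 8.88 and 8.97 in KO, and the interleukin-4 receptor gene Il4ra at 10.13, 10.16 and 10.15 against 10.75, 10.75 and 10.74. The spread within each group was a small part of the gap, and the rises were 0.71 (adjusted p = 0.0014) and 0.60 (adjusted p = 2.2e-06). Il4, the cytokine, was at 4.28, 4.27 and 4.17 against 3.92, 4.19 and 4.28, below the filter level in all samples. The gene that fell was Nfil3 (-1.47), a leucine zipper factor. Of 12 tested Th17 genes none rose and 2 fell, and neither fall was called without KO Th1 1.

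Interferon-stimulated genes, the antiviral genes that interferon signalling switches on, were lower in part. Their promoters carry the interferon-stimulated response element, here a pair of GAAA separated by any 2 bases. It was searched on both strands in the 250 bases before the start of each gene in RefSeq's promoter table (GRCm38.p6), which held 10264 of the 13082 genes tested. It was found in 13 of 33 promoters of the list (39.4%), in 4 of the 14 promoters of its lowered members (28.6%) and in 2.98% of all 32851 promoters. The stretches of the lowered genes with the largest falls among those that hold it are shown with the element in capitals, which in Rsad2 matches on the opposite strand and in Bst2 is 2 overlapping matches (GRCm38.p6; Oas3 chr5:120777680-120777779, minus strand; Bst2 chr8:71537542-71537641, minus strand; Rsad2 chr12:26456518-26456617, minus strand).
Oas3: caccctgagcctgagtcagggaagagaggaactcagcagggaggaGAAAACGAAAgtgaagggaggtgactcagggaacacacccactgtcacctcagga
Bst2: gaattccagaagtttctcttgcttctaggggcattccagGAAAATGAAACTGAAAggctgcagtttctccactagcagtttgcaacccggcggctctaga
Rsad2: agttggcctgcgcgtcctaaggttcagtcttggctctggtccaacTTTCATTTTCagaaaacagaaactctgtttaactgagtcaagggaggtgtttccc

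Of 37 tested interferon-stimulated genes 16 fell and 1 rose, with a median of -0.45 (12 and 0 without KO Th1 1). Oas3, an oligoadenylate synthetase that activates RNase L, was at 10.14, 10.09 and 9.98 in WT and 8.31, 9.28 and 8.71 in KO (-1.30, SE 0.36). Bst2, the tetherin that holds budding virus at the cell surface, was at 8.19, 8.10 and 8.07 against 6.54, 6.98 and 7.04 (-1.27, SE 0.22), and Rsad2 (viperin) at 7.58, 7.32 and 7.70 against 6.16, 6.59 and 6.34 (-1.17, SE 0.28). In these 3 genes all KO samples were below all WT samples. The largest fall of the list was in Oasl2, at 9.90, 9.72 and 9.86 against 6.71, 8.07 and 7.96 (-2.25, SE 0.49, adjusted p = 0.00063).

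A factor and a brake of the same pathway stood above WT in every KO sample, as did 22.9% of all genes tested. Of the 37 interferon-stimulated genes 5 did, and in 19 all KO samples were below all WT samples (29.8% of all genes). Irf9, the DNA-binding subunit of the interferon-activated complex, was at 10.21, 10.03 and 10.18 in WT and 10.54, 10.55 and 10.44 in KO and rose by 0.37 (adjusted p = 0.046). That call was lost without any 1 of the 6 Th1 samples, with the replicate number as a block and with samples centered on their medians, where no member of the list was called higher. Usp18, which dampens receptor signalling, was at 11.04, 11.30 and 11.50 against 11.75, 11.88 and 11.57 and was not called (0.45, adjusted p = 0.17). Genes of the interferon-gamma response did not follow. Of 24 tested GTPase and antigen presentation genes 1 rose and 3 fell (0 and 1 without KO Th1 1), and the median was 0.09. Igtp, a GTPase of that response, was at 11.58, 11.58 and 11.72 in WT and 11.82, 11.78 and 11.88 in KO (0.20, not called), beside Ifng RNA that was lower in 2 of the 3 KO samples than in all WT samples. Of 6 tested p200 genes Ifi204 alone was called, and its relatives Ifi209, Mndal, Ifi213 and Ifi214 had 0.25 to 0.45.

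Genes of DNA replication and mitosis were lower in nearly every member, and most so in KO Th1 1. Promoters of replication genes often hold E2F elements, searched here as TTTGGCGC or TTCCCGCC, and those of mitosis genes the cell cycle homology region, searched as TTTGAA. The first was in 7 of 37 replication promoters (18.9%) and 2.25% of all promoters, the second in 10 of 35 mitosis promoters (28.6%) and 16% of all, on either strand in the same 250 bases. The lowered members with the largest falls that hold them are shown with the element in capitals, which in Kif2c matches on the opposite strand (GRCm38.p6; Uhrf1 chr17:56303244-56303336, plus strand; Prim1 chr10:128015155-128015214, plus strand; Chaf1a chr17:56040324-56040415, plus strand; Cdk1 chr10:69352913-69352972, minus strand; Kif2c chr4:117178825-117178920, minus strand; Ect2 chr3:27153942-27154037, minus strand).
Uhrf1: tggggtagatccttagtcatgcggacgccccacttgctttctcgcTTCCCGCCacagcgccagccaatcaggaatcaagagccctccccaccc
Prim1: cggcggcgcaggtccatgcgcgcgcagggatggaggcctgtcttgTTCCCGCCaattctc
Chaf1a: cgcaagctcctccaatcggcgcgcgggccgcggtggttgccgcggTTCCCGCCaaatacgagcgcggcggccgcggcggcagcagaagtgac
Cdk1: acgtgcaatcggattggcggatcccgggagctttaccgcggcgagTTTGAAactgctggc
Kif2c: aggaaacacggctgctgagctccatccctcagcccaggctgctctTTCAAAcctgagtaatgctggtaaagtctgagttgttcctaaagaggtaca
Ect2: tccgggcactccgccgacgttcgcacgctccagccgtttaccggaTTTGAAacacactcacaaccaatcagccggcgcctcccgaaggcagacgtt

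All 38 tested DNA replication genes fell, with a median of -1.42. Their medians against the WT mean were -2.12 in KO Th1 1, -0.99 in KO Th1 2 and -1.06 in KO Th1 3, and KO Th1 1 was the lowest in all 38. Without it 36 were called with a median of -1.02, all but Pcna and E2f2, and in the Th1 samples alone all 38. Uhrf1, which brings the maintenance DNA methyltransferase to replicated DNA, was at 9.71, 10.04 and 9.74 in WT and 6.33, 8.44 and 8.37 in KO (-2.12, SE 0.42). Prim1, the primase, was at 9.002, 9.30 and 9.44 against 6.18, 7.90 and 7.87 (-1.93), and Chaf1a, a chromatin assembly factor, at 8.24, 8.51 and 8.34 against 5.40, 7.04 and 6.98 (-1.89, SE 0.30). No KO sample reached the WT range in these genes, and KO Th1 2 and KO Th1 3 were close to each other. Cdt1, which loads the replicative helicase, was more even, at 9.54, 9.57 and 9.34 against 8.11, 8.55 and 8.42 (-1.13, adjusted p = 2.4e-08).

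The mitosis list leaned harder on the same sample. Of 40 tested genes 39 fell, with a median of -1.58, but without KO Th1 1 it was 22 (median -0.96), and in the Th1 samples alone 26. The medians against WT were -2.90 in KO Th1 1, -0.76 in KO Th1 2 and -1.09 in KO Th1 3. Mki67, the Ki-67 gene, was at 11.40, 11.49 and 11.57 in WT and 9.003, 10.94 and 10.93 in KO. The WT and KO ranges did not meet, but the change was -1.20 with KO Th1 1 (SE 0.42, adjusted p = 0.022) and -0.55 without it (adjusted p = 0.30), and it was not called without WT Th1 2, without WT Th1 3 or in the Th1 samples alone either. Cdk1, the mitotic kinase, was at 10.71, 10.49 and 10.56 against 7.37, 9.84 and 9.32 (-1.74, and adjusted p = 0.057 without KO Th1 1). Kif2c, a kinesin of the centromere, was at 9.13, 9.14 and 9.16 against 6.05, 8.40 and 7.87 and was called with that sample (-1.71) and without it (-1.01). Ect2, which drives cytokinesis, was at 10.26, 10.54 and 10.60 against 7.48, 9.72 and 9.49 and was not called without it (adjusted p = 0.10). Cenpa, a centromeric histone gene, was the 1 member not called (-0.42).

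**Figure D3:**
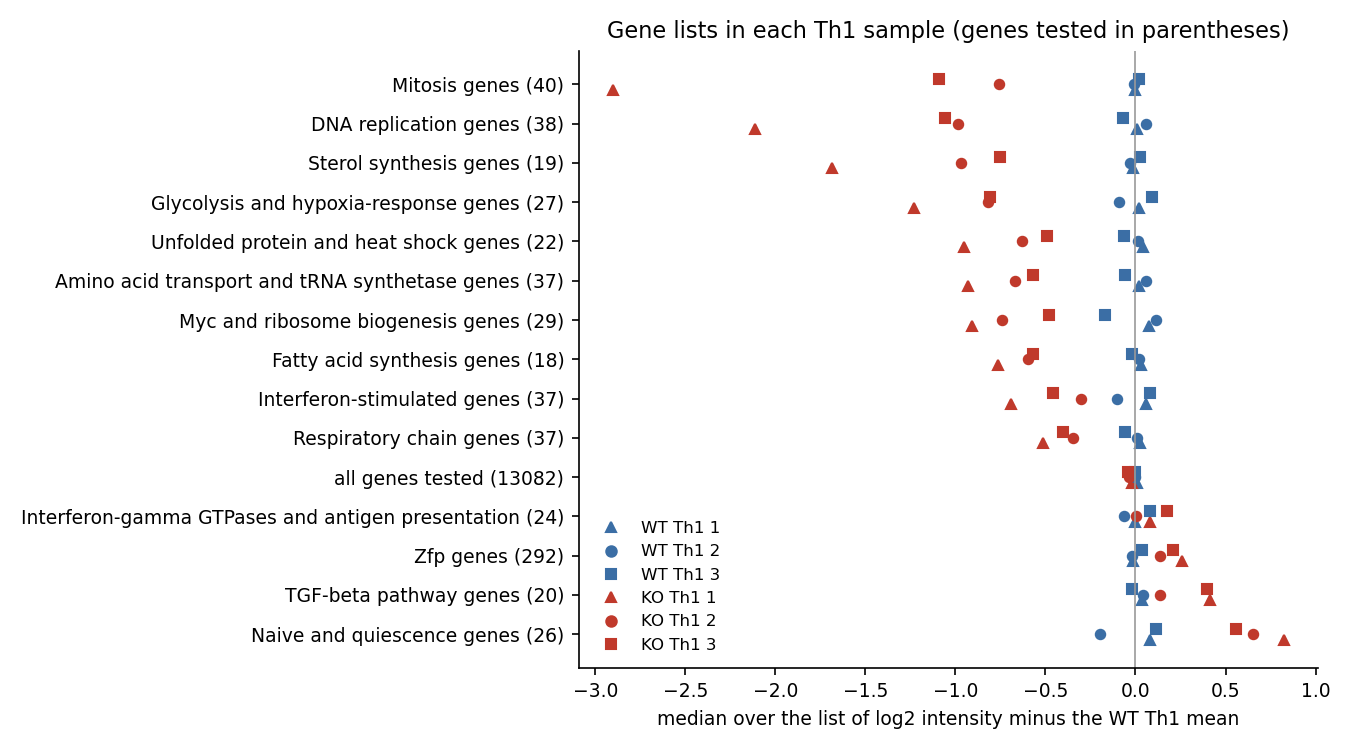
The x axis is the median over a gene list of log2 intensity minus the WT Th1 mean, for each Th1 sample (triangles, circles and squares are replicates 1, 2 and 3, blue WT, red KO); the number tested in each list stands beside its name. KO Th1 1 lies at -2.90 for mitosis and -2.12 for replication genes, the other KO samples between -0.76 and -1.09, and in the metabolic lists the KO samples lie closer together.

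Metabolic genes of activated T cells fell in most members, and most of these falls held without KO Th1 1. Of 19 tested sterol synthesis genes 17 fell (median -1.04), and 17 did without KO Th1 1. Hmgcs1, which makes the precursor of mevalonate, was at 10.18, 10.31 and 10.37 in WT and 8.05, 8.89 and 9.46 in KO. The KO samples were spread but all below WT (-1.49, SE 0.22, adjusted p = 7.1e-06). The sterol response element, searched as TCACNCCAC, was in 1 of 18 promoters of the list (5.56%) and 1.05% of all, and that 1 was the Hmgcs1 promoter, shown with the element in capitals (GRCm38.p6, chr13:119690169-119690267, plus strand).
Hmgcs1: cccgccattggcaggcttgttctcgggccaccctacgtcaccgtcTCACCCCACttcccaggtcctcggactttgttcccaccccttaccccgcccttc

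Of 18 tested fatty acid synthesis genes 14 fell and 1 rose (median -0.63), the same counts as without KO Th1 1. The desaturase genes Scd1 and Fads2 had the largest falls and the widest spread. Scd1 was at 9.80, 9.86 and 9.85 in WT and 4.42, 7.30 and 7.99 in KO (-3.26, and -2.19 without KO Th1 1). Fads2 was at 11.24, 11.24 and 11.30 against 6.98, 9.46 and 9.75 (-2.53, SE 0.56, and -1.65 without KO Th1 1). WT values were nearly equal in both genes and KO values were not. Acss2, an acetyl-CoA synthetase, was the 1 gene that rose (0.72).

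Of 27 tested glycolysis and hypoxia-response genes 22 fell and 1 rose (median -1.01), and 19 fell without KO Th1 1. Hk2, the first enzyme of glycolysis in activated cells, was at 8.40, 8.72 and 8.74 in WT and 6.35, 6.43 and 7.31 in KO (-1.92, SE 0.19, adjusted p = 2.1e-08). Vegfa, a target of hypoxia-inducible factor, was at 8.39, 8.48 and 8.94 against 6.47, 6.53 and 6.87 (-1.98, adjusted p = 2.7e-08). In both genes KO Th1 1 and KO Th1 2 were nearly equal and the groups far apart. Ak4, a mitochondrial adenylate kinase, was among the 15 largest falls (-2.65).

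Of 37 tested amino acid transport and tRNA synthetase genes 33 fell and none rose (median -0.74, 27 without KO Th1 1). Asns, asparagine synthetase, was at 9.53, 9.89 and 9.68 in WT and 7.06, 7.63 and 7.65 in KO (-2.26, SE 0.41), and Slc7a5, the transporter of large neutral amino acids, at 11.27, 11.28 and 11.19 against 8.87, 9.95 and 10.03 (-1.63). The groups did not overlap in either. Of 29 tested Myc and ribosome biogenesis genes 25 fell (median -0.73, 21 without KO Th1 1), while Myc itself had -0.31 and was not called (adjusted p = 0.24). Of 37 respiratory chain genes 25 fell (median -0.41, 19 without KO Th1 1), and of 22 unfolded protein and heat shock genes 15 fell and 1 rose (median -0.75, 12 and 0 without KO Th1 1).

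Genes of naive and resting T cells were higher. Of 26 tested 20 rose and 1 fell (18 and 1 without KO Th1 1), and the median was 0.69. Bach2, a repressor that holds back effector genes, was at 9.19, 9.15 and 9.42 in WT and 10.61, 10.36 and 10.49 in KO (1.23, SE 0.12, adjusted p = 3.8e-08). Actn1, an actin cross-linker of naive cells, was at 9.12, 8.29 and 8.97 against 11.31, 10.67 and 10.09 (1.90, SE 0.26). All KO samples were above all WT samples in both. Pik3ip1, an inhibitor of PI3 kinase, rose by 1.72, the co-stimulatory receptor gene Cd27 by 1.46, S1pr1, which leads T cells out of lymph nodes, by 1.13, and its activator Klf2 by 0.92. Igfbp4 went the other way, at 11.38, 11.28 and 11.34 in WT against 9.89, 10.31 and 10.24 in KO (-1.19).

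**Figure D4:**
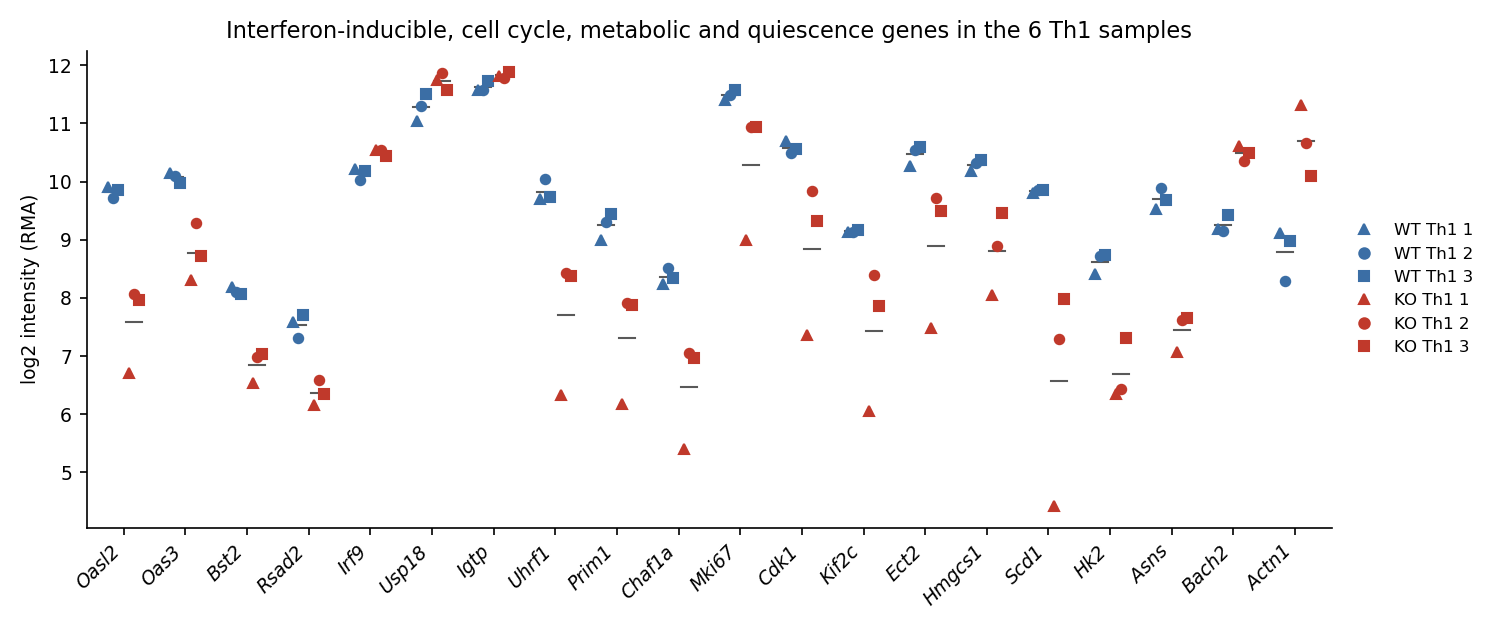
log2 intensity (y axis) of interferon-inducible, cell cycle, metabolic and resting-cell genes in each of the 6 Th1 samples; triangles, circles and squares are replicates 1, 2 and 3, blue is WT, red is KO, and grey bars are group means. KO Th1 1 is set apart from the other KO samples in Uhrf1, Prim1, Mki67, Cdk1, Ect2 and Scd1, and much less in Bst2, Rsad2, Asns and Bach2.

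Lists of signalling and surface genes had called shares around those of all genes tested. Between 9.52% and 31.2% of a list rose and 12.5% to 31.6% fell, against 17.0% and 23.7% of all genes. Of 19 tested ERK feedback genes 6 fell and 2 rose (4 and 1 without KO Th1 1), with Spred1 (-1.08, and -0.71 without KO Th1 1) and Dusp6 (-1.02, not called without KO Th1 1), which both restrain the kinase cascade, lower beside Etv5. Of 16 genes of JAK-STAT restraint and interleukin-2 signalling 5 rose and 2 fell (4 and 0 without KO Th1 1), Socs3 by 0.60 and Ptpn22 by 0.57 upward. Of 21 activation and effector factors 2 rose and 5 fell (1 and 2 without KO Th1 1). Bcl6, the follicular helper factor, was at 7.93, 7.68 and 8.29 in WT and 9.27, 8.98 and 9.06 in KO, without overlap (1.14, adjusted p = 0.00017), and the transferrin receptor gene Tfrc at 10.28, 10.50 and 10.32 against 8.16, 9.01 and 9.38 (-1.52). Of 15 co-inhibitory receptors 4 rose and 3 fell (3 and 1 without KO Th1 1, 3 and 4 with samples centered on their medians). Cd200, a ligand that restrains myeloid cells, was at 8.33, 8.74 and 8.68 against 10.23, 10.002 and 10.30 (1.59), above WT in every sample.

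Genes of stress and death gave no single direction. Of 19 tested p53 target genes 4 rose and 6 fell (2 and 2 without KO Th1 1). Cdkn1a, the cell cycle inhibitor p21, was at 11.39, 11.66 and 11.46 in WT and 8.39, 10.27 and 10.46 in KO, lower in each sample (-1.80, and -1.14 without KO Th1 1). Of 24 apoptosis and death genes 6 rose and 4 fell (4 and 2 without KO Th1 1, 4 and 5 with samples centered on their medians). Mlkl, the executor of necroptosis, was at 8.07, 8.31 and 8.03 against 6.09, 6.97 and 6.96 (-1.46, adjusted p = 1.9e-06), and Ripk3, the kinase that acts on it, fell by 1.05. Mcl1 (0.68), Bcl2l11 (0.84) and Cflar (0.63), a survival gene, a death gene and an inhibitor of caspase-8, rose. Of 11 T cell identity genes 5 rose and 1 fell (2 and 1 without KO Th1 1), with Cd3e and Cd4 higher by 0.39 and 0.36 and Thy1 lower.

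TRIM28's own partners changed in both directions, at shares not far from those of all genes tested. Of 23 tested 5 rose (21.7%) and 7 fell (30.4%), where 17.0% and 23.7% of all genes did. Without KO Th1 1 the counts were 4 and 5. The median with all samples was 0.03, which turned to -0.06 with samples centered on their medians. Trim24, a relative that binds TRIM28, was at 9.33, 9.48 and 9.55 in WT and 10.89, 10.55 and 10.54 in KO (1.21, SE 0.09, adjusted p = 3.5e-10). Mbd1, a methyl-CpG binding protein gene, was at 9.49, 9.41 and 9.50 against 10.66, 10.74 and 10.94 (1.31, SE 0.10). Setdb1 was at 9.20, 9.18 and 9.09 against 9.55, 10.20 and 10.58. All KO samples were above WT in the 3 genes, and in Setdb1 KO Th1 1 was the least raised (0.95 with it, 1.23 without it). The lowered members were Uhrf1, Dnmt1 (-0.99), Cbx5 (-1.12), Cbx3, Cbx1, Hdac2 and Morc2a (Cbx1 and Morc2a not called without KO Th1 1), of which Uhrf1 and Dnmt1 act at replicating DNA. The replication list fell in the same samples, and its part in those changes was not tested.

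Genes named Zfp, many of which encode the KRAB proteins that recruit TRIM28, rose more often than they fell. Of 292 tested, 87 rose (29.8%) and 17 fell (5.82%), with a median of 0.20, against 17.0% and 23.7% of all genes. Without KO Th1 1 it was 53 and 8, and with samples centered on their medians 61 and 22. The highest was Zfp831, at 7.76, 7.36 and 7.57 in WT and 9.56, 9.03 and 9.09 in KO (1.66), with no overlap, followed by Zfp2 (1.62), Zfp354c (1.31), Zfp600 (1.23) and Zfp445 (1.13). Zfp367 (-1.29), Zfp365 (-0.84), Zfp750 (-0.71), Zfp385a (-0.69) and Zfp239 (-0.66) fell most. Of these 10, Zfp600, Zfp750 and Zfp385a were not called without KO Th1 1. Of 17 imprinted genes 4 rose (23.5%) and none fell, against 17.0% and 23.7% of all genes. With samples centered on their medians it was 4 and 1. The genes that rose were Peg13, Airn, Mcts2 and Impact (0.48 to 0.80, Airn not called without KO Th1 1). Of 28 germline and reproductive genes 9 passed the filter on low values, of which 2 rose (Spo11 1.07 and Tdrd9 0.37) and 1 fell (Stag3 -0.89), the last 2 not called without KO Th1 1, a split that was 1 and 2 with samples centered on their medians.

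The genes with the largest rises were of several kinds. Pgpep1l, a peptidase-like gene, was at 6.81, 6.68 and 7.12 in WT and 11.43, 11.01 and 11.28 in KO (4.37, SE 0.25, adjusted p = 1.6e-12). Vmn2r96, a vomeronasal receptor gene, was at 3.89, 3.12 and 3.70 against 7.74, 7.09 and 6.59. Its WT samples lay below the filter level, so its rise of 3.57 may understate the true ratio. Cd24a, the third, is described with the Th2 comparison. Bmp7, a growth factor gene, was at 7.75, 7.15 and 7.46 against 9.81, 9.69 and 9.40 (2.18, SE 0.20), and Abca5, a lipid transporter gene, at 4.73, 4.71 and 4.73 against 6.47, 7.12 and 7.64 (2.35, SE 0.25). Each of these genes was higher in every KO sample, which the rule that named them required. Tbc1d30 (2.46), St8sia6 (2.47), Ramp3 (2.38), Tdrp (2.32), Lrrc6 (2.16) and Atp1b1 (2.08) completed the 15 highest characterized genes with Cd24a, Rflnb, Cacna1b, Cd7 and Foxp3. Among the lowest were Ccn3, a secreted matrix protein gene, at 7.74, 7.39 and 6.47 in WT and 4.77, 4.76 and 4.83 in KO (-2.41), and Enah (-2.63), Nedd4 (-2.43), Akr1c18 (-2.35) and Tns4 (-2.32). The KO values of Ccn3 lay below the filter level, so its fall may be understated.

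Where the KO effect in Th1 differed from that in Th0 was tested as a difference of differences. The Th0 groups are the same genotypes stimulated without a named lineage. The difference was called in 77 genes (0.589%), 18 with a more positive and 59 with a more negative effect in Th1, and 986 had an unadjusted p under 0.05. The count was 37 without WT Th1 3, 45 without WT Th0 3 and 51 without KO Th0 1, and 19 in a fit to the Th0 and Th1 samples alone. Sample numbers of Th1 and Th0 went together within each genotype, and the same smaller fit with the number as a block called 161, of which 57 were among the 77. The fit with the block thus differs from the fit to all samples in the samples used as well. Eomes changed by -2.55 in Th1 and by -0.09 in Th0, a difference of -2.46 (adjusted p = 0.00044, with the block 0.0076). For Etv5 the difference was -2.28 (-1.46 with probe sets averaged), and both genes were also called in the smaller fit without the block. For Klrk1 it was -2.19 and for Slamf7 -1.79, each called over all samples and with the block, but not in the smaller fit without it. For Ifi204 (-3.12), Serpinb5 (-2.35) and Rassf4 (-1.90), a Ras association gene, it was called over all samples but in neither smaller fit, with adjusted p-values of 0.082, 0.080 and 0.061 with the block. Hopx, a homeodomain protein gene of effector cells, fell in Th1 (8.79, 8.43 and 9.28 in WT against 7.98, 7.89 and 8.08 in KO, -0.85) and rose in Th0 (0.77), so its effects had opposite signs (difference -1.62, adjusted p = 0.00032).

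Differences in the other direction were fewer. Fxyd7, a regulator of the sodium pump, was at 5.70, 5.40 and 5.60 in WT Th1 and 7.25, 7.48 and 7.01 in KO Th1 (1.68, SE 0.20), against 0.01 in Th0 (difference 1.66, adjusted p = 0.0026). Il4ra rose by 0.60 in Th1 and had 0.06 in Th0 (difference 0.54, adjusted p = 0.018), a call that did not hold without WT Th1 3, WT Th0 3, KO Th0 1 or KO Th0 3. Ifngr2 differed by 1.06 (adjusted p = 0.025, with the block 0.052), which did not hold without any 1 of 7 samples, KO Th1 1 among them. In Cpe, a peptidase gene, the change was -0.84 in Th1 and -3.03 in Th0 (difference 2.20). For Foxp3 the difference of 1.49 was not called over all samples (adjusted p = 0.28) or in the smaller fit without the block, and was called with the block (0.016). That for Il10 (-1.71) was not called over all samples (0.36) and was called in the smaller fit both without the block and with it (0.021). For Ifng it was called in none of the 3 fits (-2.28, 0.22 over all samples and 0.10 with the block). In limma no interferon-stimulated, DNA replication or mitosis gene was called in this difference, and at an unadjusted p under 0.05 it was 13 of 37, 0 of 38 and 0 of 40. The interferon-stimulated genes fell more in Th0 than in Th1, with a median difference of 0.49. In Th0 27 of the 37 were called lower (median -0.99), and in Th1 16 (median -0.45). Over all genes tested 2566 were called lower in Th0 and 3101 in Th1.

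**Figure D5:**
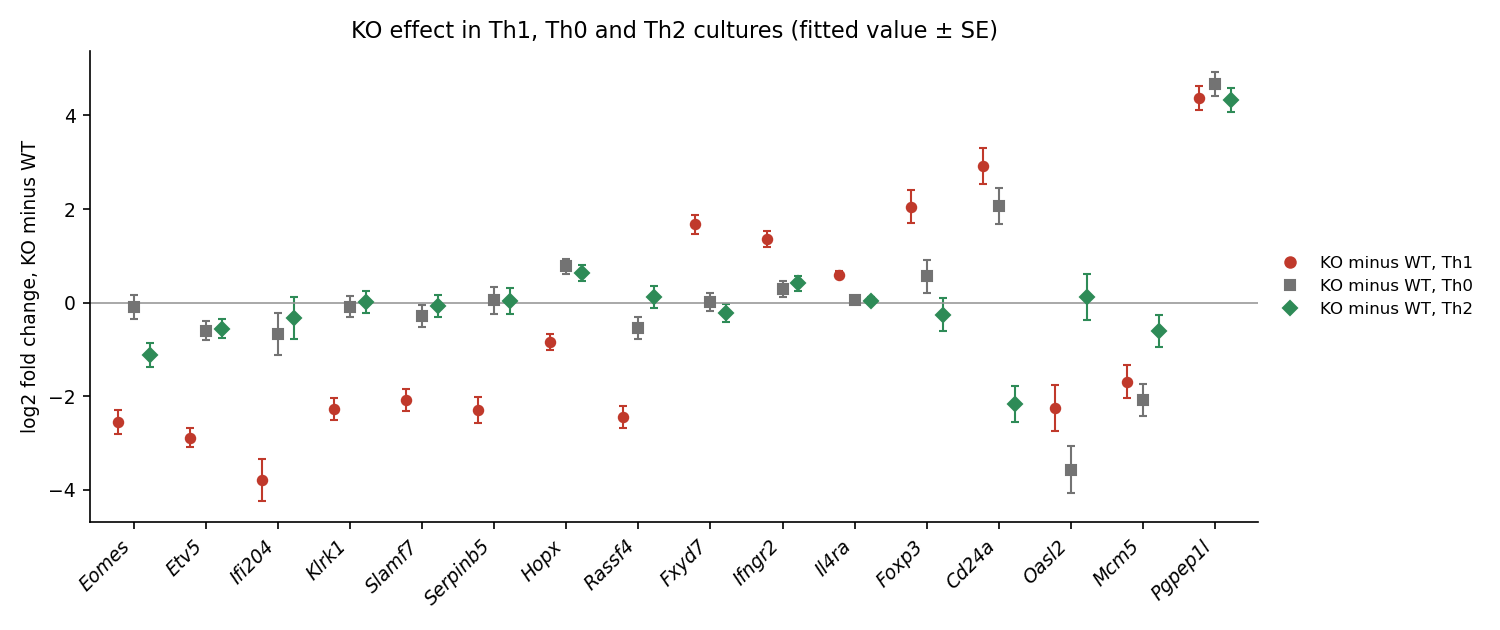
The y axis is the log2 change (KO minus WT) in Th1 (red circles), Th0 (grey squares) and Th2 (green diamonds), with bars of 1 SE, for 16 genes; the 3 changes come from separate KO and WT samples. Same-numbered Th1 and Th0 samples of a genotype went together, so the bars do not give the error of a gap between conditions. Eomes, Etv5, Ifi204, Klrk1, Slamf7 and Serpinb5 lie lower in Th1 than in Th0, Mcm5 lies near in both, Cd24a has opposite signs in Th1 and Th2, and Pgpep1l is high in each.

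From Th2, the effect in Th1 differed in many more genes, 1316 (10.1%), of which 584 were more positive in Th1 and 732 more negative. The count was 662 without KO Th1 1, 835 without WT Th1 2 and 873 without WT Th2 2, 542 in the Th1 and Th2 samples alone, and 666 in these with the replicate number as a block. Cd24a, the heat-stable antigen, was at 5.66, 5.20 and 5.06 in WT Th1 and 9.19, 7.84 and 7.62 in KO Th1, a rise of 2.91 (SE 0.38), and it fell by 2.16 in Th2, for a difference of 5.08. In Th1 all KO samples were above WT, and KO Th1 1 was the highest. Of the interferon-stimulated genes 7 were called with a more negative effect in Th1. Mx1, an antiviral GTPase, was at 6.78, 6.43 and 6.76 against 5.27, 5.83 and 5.75 in Th1 (-1.04) and rose by 1.63 in Th2 (difference -2.67, adjusted p = 7.8e-05). Of the 38 DNA replication genes 14 were called as more negative in Th1 and of the 40 mitosis genes none, with 5 at an unadjusted p under 0.05 in limma, where 3288 of all 13082 genes were. Of the 26 resting-cell genes 8 were more positive in Th1 and 1 more negative. Foxp3 had 2.05 in Th1 and -0.26 in Th2 (difference 2.32, adjusted p = 0.0030), and Eomes fell in both (-2.55 and -1.13, difference -1.42, adjusted p = 0.012).

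In Ly6g, Ly6c2, Mpzl2, Plac8, Efna5, Tcaf3, Nts, Rnd3 and Nrp2 the difference from Th2 came mainly from Th2. Their changes in Th1 lay between -0.95 and 0.11, and of these that of Plac8 alone was called (not without KO Th1 1). Ffar2, a receptor for short-chain fatty acids, had -1.58 in Th1 and 1.39 in Th2 (difference -2.97), and Ifi204 a difference of -3.46, which was not called when the Th1 and Th2 samples were fitted alone.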

How the data were processed

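Total RNA, DNase-treated on the column, was hybridized to Affymetrix arrays on a GeneTitan instrument, per the labels' protocols. The authors computed log2 intensities by RMA (oligo package, R 3.1.0), per the submitters' processing notes. The genome build is not given in the sources used here. The deposited log2 intensities were used with no further scaling. Of 41345 probe sets 23521 had exactly 1 symbol, and the probe set with the highest mean was taken for each of 22180 genes, of which 13082 were tested. RMA draws low intensities together, so folds of low genes are compressed.

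A mean for each of the 12 groups was fitted to all 36 samples with limma 3.58.1 in R 4.3.3 (24 residual degrees of freedom), and p-values, two-sided, were adjusted by Benjamini-Hochberg over the 13082 genes. Adjusted p-values are from this fit unless another is named. The samples, gene lists and tests were chosen with earlier results of these data known. Named were the 15 highest and 15 lowest called genes whose KO samples all lay beyond the WT samples, the 6 highest and 6 lowest of each difference, members of the gene lists, the 5 highest and 5 lowest called Zfp genes and Trim28, with sex-linked genes and symbols of uncharacterized genes or small RNAs left out.

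Pairing by replicate number was checked by the correlation of same-numbered samples' deviations from their group means. It was 0.11, -0.10 and -0.03 for KO with WT Th1, which were not treated as paired. It was 0.70, 0.60 and 0.51 for KO Th1 with KO Th0 and 0.39, 0.33 and 0.23 for WT Th1 with WT Th0, so the difference from Th0 is given with the block too. For Th2 it was 0.16, 0.10 and 0.33 in KO and 0.35, 0.070 and 0.21 in WT, not over 0.1 in every pair. In simulated data, KO against WT Th1 recovered 40 of 67 genes shifted by 0.5 (log2), 65 of 67 shifted by 1 and 66 of 66 shifted by 2, with 10 false calls among 12882 unchanged genes. The share of shifted genes was far smaller there than the 40.7% called in the data. Recovery and false calls depend on that share, so these numbers do not carry over to the data. The number of arrays limits the precision.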

Additional observations from a re-analysis of the deposited data

Results flagged for a closer look

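The KO effect in Th1 differed from that in Th0 in 77 genes and from that in Th2 in 1316 by a test of the difference itself. The causes were not tested. The comparisons share the Th1 samples, and KO Th1 1 enters both.

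In the difference Th1 minus Th0, the more positive genes were Cpe (2.20), Ccr8 (2.03), B4galnt4 (1.94), Fxyd7 (1.66), Ctnnd2 (1.55), Olfr763 (1.46), Ifngr2 (1.06) and Il4ra (0.54). In Cpe, Ccr8, B4galnt4 and Ctnnd2 the change was larger in Th0 than in Th1: Ccr8, a chemokine receptor gene, had 0.22 in Th1, at 8.34, 8.42 and 7.73 in WT and 7.38, 8.58 and 9.19 in KO, and -1.81 in Th0. Fxyd7 and Olfr763 were called higher in Th1 and not in Th0. The difference for Fxyd7 was called in all 25 other settings, that for Olfr763 was not called in 8 of 24, and that for Ccr8 not in 8 of 25. The more negative genes were Ifi204 (-3.12), Eomes (-2.46), Serpinb5 (-2.35), Etv5 (-2.28), Ly6a2 (-2.22), Klrk1 (-2.19), Rassf4 (-1.90), Slamf7 (-1.79), Sulf2 (-1.74), Hopx (-1.62) and Klrc1 (-1.29). Of 25 other settings the call was lost in 12 for Klrc1, in 9 for Sulf2 and in 9 for Ly6a2, mostly on leaving out 1 sample, and in none for Eomes, Etv5 or Hopx. Ly6a2, a Ly6 family gene, was at 10.99, 10.32 and 10.90 in WT Th1 and 7.49, 10.27 and 9.23 in KO Th1, so KO Th1 1 stood far below the other KO samples, and the difference was -1.46 without it. Sulf2, a heparan sulfatase gene, was at 7.99, 8.17 and 8.35 against 5.37, 5.99 and 6.15, with no overlap.

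In the difference Th1 minus Th2, the more positive genes were Efna5 (5.17), Cd24a (5.08), Tcaf3 (5.06), Nts (4.22), Rnd3 (3.72), Nrp2 (3.31) and Foxp3 (2.32). Efna5 (-5.30), Tcaf3 (-4.95), Nts (-4.18), Rnd3 (-3.96) and Nrp2 (-3.43) fell in Th2 and were not called in Th1. The more negative genes were Ly6g (-5.35), Mpzl2 (-3.80), Ly6c2 (-3.62), Ifi204 (-3.46), Plac8 (-3.15), Ffar2 (-2.97), Mx1 (-2.67) and Usp18 (-1.52). Of these Ly6g, Mpzl2, Ly6c2 and Plac8 rose in Th2.

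Probe sets without a gene symbol entered no comparison of genes. Among 9318 of them that passed the same filter, 2369 were called in KO against WT Th1 (25.4%), 1887 higher and 482 lower, where probe sets with 1 symbol had 2162 higher and 3082 lower. At least 2-fold changes were 460 higher and 74 lower. With samples centered on their medians the split of the unnamed probe sets was 1356 higher and 635 lower. What these probe sets measure is not given in the sources used here.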

How the results depend on the processing

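The count of genes called in Th1 stayed within 1.5 times its value of 5328 under every setting tried. It lay between 4709 and 5703 under other filters, scalings, priors and weights, with probe sets averaged within genes, and in the Th1 samples alone, and between 3822 (without KO Th1 1) and 5124 when 1 Th1 sample was left out, and over all probe sets, named or not, it was 7987. With the replicate number as a block it was 5503, of which 5300 were among the 5328. The difference from Th0 (77 genes) moved most: 164 with array weights, 19 in the Th0 and Th1 samples alone, 161 with the replicate block within genotype, 34 without both KO samples numbered 1, and 37 to 96 when 1 sample was left out. The difference from Th2 (1316) was 2099 with array weights, 542 in the Th1 and Th2 samples alone, 666 with the replicate block within genotype, and 662 to 1564 when 1 sample was left out. The causes were not tested beyond the fewer samples of the smaller fits. Of 75 named genes called in Th1, 68 were called in all settings, and of 19 named genes called in the difference from Th0, 5 were. Named genes include those picked for the largest changes without overlap, so the first share does not stand for all genes. Of all genes called in Th1, 69.7% of those lower and 63.5% of those higher were also called in 2 other fits. These fits were without KO Th1 1 and to the Th1 samples alone. None of the named called genes changed sign, while the changes near 0 of Il12rb2, Il18r1 and Runx3, not called, did. Array weights gave KO Th1 1 the lowest weight of the Th1 samples, 0.40. The median spread of a gene was an SD of 0.109 in WT and 0.146 in KO, and genes near the filter level carry little signal over background.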
